A study of Homo sapiens
Mus musculus with 24 samples.

Results

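The p53 target genes described here were 42 transcripts, 21 read from the human table and 21 from the murine table of the same xenograft tumors, out of 35547 genes in both tables. They were chosen by symbol, as well-known direct targets of p53, with earlier results of these data known. Shares of members set beside those of all genes are therefore a description. All 21 human and all 21 murine members were present and passed the filter on low counts, among 16434 human and 15011 murine genes tested. Of them, 20 had the same gene listed in both species. EDA2R was listed in the mouse alone as Eda2r, and TP53I3 was listed in the human table alone. The tumors were grown from MDA-MB-231, an established human triple negative breast cancer cell line, injected subcutaneously into female B6/Rag1KO mice at 14 weeks of age. Rag1KO mice form no mature T or B cells but keep myeloid cells, vessels and fibroblasts. All 24 tumors therefore held human tumor cells and murine host cells, and 50 bp reads from the 3′ ends of transcripts were counted for each genome separately.

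The 5 groups shared this host and cell line, and the labels give 10 weeks of diet before tumor cell injection for every mouse. CTRL tumors (n = 4) came from mice on a high-fat diet given weekly saline injections, and Chemo tumors (n = 5) from mice on the same diet given weekly injections of doxorubicin and cyclophosphamide. MC tumors (n = 5) came from mice on the high-fat diet with moringa concentrate, a seed extract. MC + Chemo tumors (n = 6) came from mice that received that diet and both drugs, and Lean tumors (n = 4) from mice on a lean diet without intervention. Whether MC mice received saline is not given in the labels. One tumor, MC + Chemo 5, is MC + Chemo by its title and MC by its intervention entry. It was kept as MC + Chemo, and calls that change without it are given with both values. Each tumor is named by its group and mouse number, and each came from a separate mouse.

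p53 is a transcription factor that is stabilized when DNA is damaged. It then raises transcripts that stop the cell cycle, promote cell death or repair, and restrain p53 itself through the ubiquitin ligase Mdm2. Doxorubicin, which blocks topoisomerase, and cyclophosphamide, which alkylates DNA after activation in the liver, both damage DNA. The labels give no altered p53 allele for the mice, so host cells are taken here as p53 wild type. Each tumor thus held transcripts of the same target genes from murine host cells and from human tumor cells, exposed to the same treatment.

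Library totals ranged from 3664056 to 9892470 counts for the murine table and from 7796231 to 17621273 for the human table, and human counts were 47.8% to 74.0% of each library. All 6 markers of the MDA-MB-231 line were above 0 in every tumor. The 2 of 8 T and B cell markers that were in the murine table summed to 32.8 to 117 normalized counts. CTRL 17 and CTRL 44 stood apart in the human table, with summed MDA-MB-231 markers of 88059 and 66658 normalized counts, while the other 22 tumors lay between 27743 and 44255. CTRL 17 also had the lowest endothelial sum, 669 normalized counts, while the highest CTRL tumor had 4634. In 4 tumors (MC 41, MC 48, MC + Chemo 5 and MC + Chemo 43) the skeletal muscle markers summed to 10847 to 76081 normalized counts, and in MC 41 and MC + Chemo 52 the adipocyte markers summed to 88145 and 111386. In those 4 muscle-rich tumors the same muscle genes also had counts in the human table, at 14.9% to 16.7% of the murine count. How reads that match both genomes were assigned is not given in the sources used here, so a part of any member's count may come from the other species.

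Chemotherapy raised 2 of the 21 host p53 targets. Cdkn1a, which encodes the cyclin-dependent kinase inhibitor p21, was 1.81-fold higher, and Trp53inp1, which encodes a stress protein that promotes p53 phosphorylation and cell death, was 1.66-fold higher, when the Chemo against CTRL and the MC + Chemo against MC differences were averaged. In all, 18 of the 21 members had a higher level with chemotherapy and 3 (Fdxr, Tnfrsf10b and Rrm2b) a lower one, while 44.7% of all host genes were higher. Against CTRL, 18 of 21 members were also higher in Lean and 16 of 21 in MC, where no chemotherapy was given. Among all 15011 host genes, 4 were called with chemotherapy across both diets, which is 0.0266%, and 3 of these 4 were higher, 0.02%. Both called members also met the study's stricter rule, with a base mean above 30 and a fold change above 1.5. The other 2 calls were H2-M2, a nonclassical class I histocompatibility gene, with a log2 fold change of −2.05, and Camp, the neutrophil antimicrobial peptide cathelicidin, with 5.42.

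**Figure D1:**
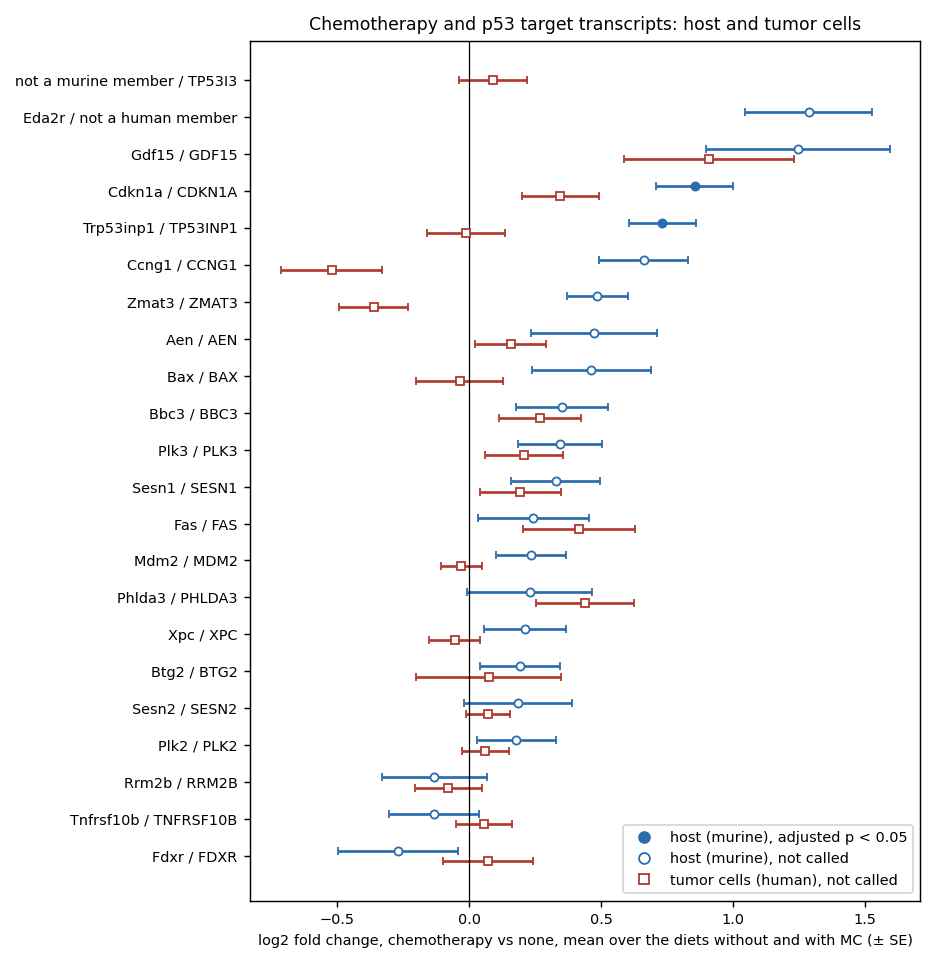
Log2 fold change (± SE) with chemotherapy, averaged over the diets without and with MC, for each member in host (blue circles) and tumor cells (red squares), with filled symbols at an adjusted p below 0.05. Only Cdkn1a and Trp53inp1 of the host are filled, at 0.85 and 0.73, both close to that threshold. Right of 0 lie 18 of 21 host members and 14 of 21 human members. Of all genes tested, 44.7% in the host and 46.7% in tumor cells were higher.

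Among the cell cycle genes, Cdkn1a (ENSMUSG00000023067) had normalized counts of 1142, 779, 844 and 577 in the CTRL tumors and of 1716, 1212, 1247, 1131 and 1717 in the Chemo tumors. The MC tumors had 638, 760.0, 826, 607 and 587, and the MC + Chemo tumors ranged from 955 to 1639.6 with a median of 1418. Only CTRL 17, at 1142, overlapped the Chemo tumors, and no MC tumor reached any MC + Chemo tumor. The latter rests on the title of MC + Chemo 5, which lay above MC + Chemo 47 and MC + Chemo 52. Counted as MC, it would make these groups overlap. The log2 fold change across both diets was 0.85 ± 0.15 (SE), with an adjusted p of 0.0470 by edgeR's quasi-likelihood test with Benjamini-Hochberg adjustment. The Lean tumors had 951, 566, 1154 and 893, within the range of CTRL apart from the lowest and highest of them.

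Ccng1, which encodes cyclin G1, a p53 target that acts on the phosphatase controlling Mdm2, had 229.5 to 259.7 normalized counts in CTRL and 319 to 524 in Chemo, without overlap. MC tumors had 189 to 457, where MC 41 alone was above 244, and MC + Chemo tumors 255 to 604. Its log2 fold change across both diets was 0.66 ± 0.17 (SE), adjusted p = 0.313 by edgeR's quasi-likelihood test. The damage-responsive polo-like kinase Plk3 had 0.34 ± 0.16 (SE) on the log2 scale, its relative Plk2 0.18 ± 0.15 (SE), and the antiproliferative gene Btg2 0.19 ± 0.15 (SE). None of these 4 passed the test.

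The feedback gene Mdm2 (ENSMUSG00000020184) did not pass the test in any of the 8 comparisons. It had 326, 309.9, 173 and 331 normalized counts in CTRL and 429.7, 364, 311, 359 and 335 in Chemo. MC tumors had 324, 238, 256, 380.4 and 286, MC + Chemo tumors 257 to 401 with a median of 325, and Lean tumors 295, 351, 297 and 285. All pairs of groups overlapped, and only CTRL 44, at 173, lay far below its group. The log2 fold change across both diets was 0.23 ± 0.13 (SE), adjusted p = 0.899 by edgeR's quasi-likelihood test. Trp53 itself (ENSMUSG00000059552), which is regulated mainly at the protein level, was not a member and had 33.6, 30.9, 55.1 and 44.6 in CTRL and 26.4, 36.1, 73.6, 21.1 and 33.3 in Chemo. MC tumors had 39.7, 32.6, 47.7, 31.8 and 22.01, MC + Chemo tumors 16.7 to 39.7 with a median of 26.9, and Lean tumors 39.4, 47.8, 50.8 and 35.01. Its groups overlapped as well, with a log2 fold change of −0.22 ± 0.22 (SE) across both diets and an adjusted p of 0.942 by the same test.

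Genes that act in cell death made up the largest role among the members. Trp53inp1 (ENSMUSG00000028211) had normalized counts of 94.1, 140.0, 104 and 130.1 in CTRL and of 223, 231, 267, 211 and 159 in Chemo. MC tumors had 87.3, 105, 135, 132 and 126, and MC + Chemo tumors 135 to 230.0 with a median of 169.9. Every Chemo tumor was above every CTRL tumor, and every MC + Chemo tumor was above every MC tumor, the latter by less than 1 normalized count. Counted as MC, MC + Chemo 5 would overlap MC + Chemo here too, as it lay above MC + Chemo 25. The log2 fold change across both diets was 0.73 ± 0.13 (SE), adjusted p = 0.0487 by edgeR's quasi-likelihood test with Benjamini-Hochberg adjustment. Lean tumors had 108, 139.5, 104 and 136, inside the CTRL range.

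Eda2r (ENSMUSG00000034457), the receptor of an ectodysplasin A isoform in the tumor necrosis factor receptor family, had few counts but the largest host log2 fold change of the members, 1.29 ± 0.24 (SE) or 2.44-fold across both diets. CTRL tumors had 9.60, 17.4, 5.13 and 13.2 normalized counts, and MC tumors 6.35, 19.95, 21.4, 15.5 and 9.06. Chemo tumors had 34.8, 24.4, 40.3, 34.2 and 40.9, and MC + Chemo tumors 21.8 to 40.6 with a median of 29.1. All 11 tumors with chemotherapy lay above all 9 high-fat tumors without it, and Eda2r was the only one of 15011 host genes for which this held in the higher direction, 0.00666%. The gap was narrow (21.8 against 21.4), and Lean 3, at 23.5, fell inside the range with chemotherapy, while the other Lean tumors had 13.1, 17.2 and 10.0. The separation also rests on the title of MC + Chemo 5. That tumor was 1.60 above the CTRL mean on the log2 scale, Chemo 30 was 1.16 and MC + Chemo 47 was 1.00. Counted as MC, it would make the groups overlap. The adjusted p was 0.0681 by edgeR's quasi-likelihood test, so Eda2r was not called.

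Zmat3 (ENSMUSG00000027663), a p53-induced zinc finger RNA-binding protein that acts on splicing, had 134, 175, 182 and 124 normalized counts in CTRL and 202, 227, 233, 226 and 235 in Chemo. MC tumors had 156, 108, 162, 153 and 128, MC + Chemo tumors 130.3 to 228 with a median of 199.6, and Lean tumors 157, 151, 152 and 180.0. The Chemo tumors lay above all CTRL tumors, and 1 MC + Chemo tumor overlapped MC. Its log2 fold change across both diets was 0.49 ± 0.12 (SE), adjusted p = 0.240 by edgeR's quasi-likelihood test. Of the remaining death genes, the pore-forming Bax had a log2 fold change of 0.46, its activator Bbc3 (Puma) 0.35, the exonuclease Aen 0.47, the Akt inhibitor Phlda3 0.23 and the death receptor Fas 0.24. The TRAIL receptor Tnfrsf10b had −0.13, and none of these 6 passed the test.

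Among stress and repair genes, Gdf15, a secreted stress cytokine, ranged from 6.91 to 28.2 normalized counts in CTRL and from 18.7 to 51.6 in Chemo. MC tumors had 4.76 to 28.5 and MC + Chemo tumors 15.4 to 85.4 with a median of 45.0, so both pairs of groups overlapped. Its log2 fold change across both diets was large but variable, 1.25 ± 0.35 (SE), with an adjusted p of 0.420 by edgeR's quasi-likelihood test. The sestrins Sesn1 and Sesn2, which restrain mTORC1, had 0.33 and 0.18, and the damage sensor of nucleotide excision repair Xpc had 0.21. The p53-inducible ribonucleotide reductase subunit Rrm2b had −0.13 and the mitochondrial ferredoxin reductase Fdxr −0.27.

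**Figure D2:**
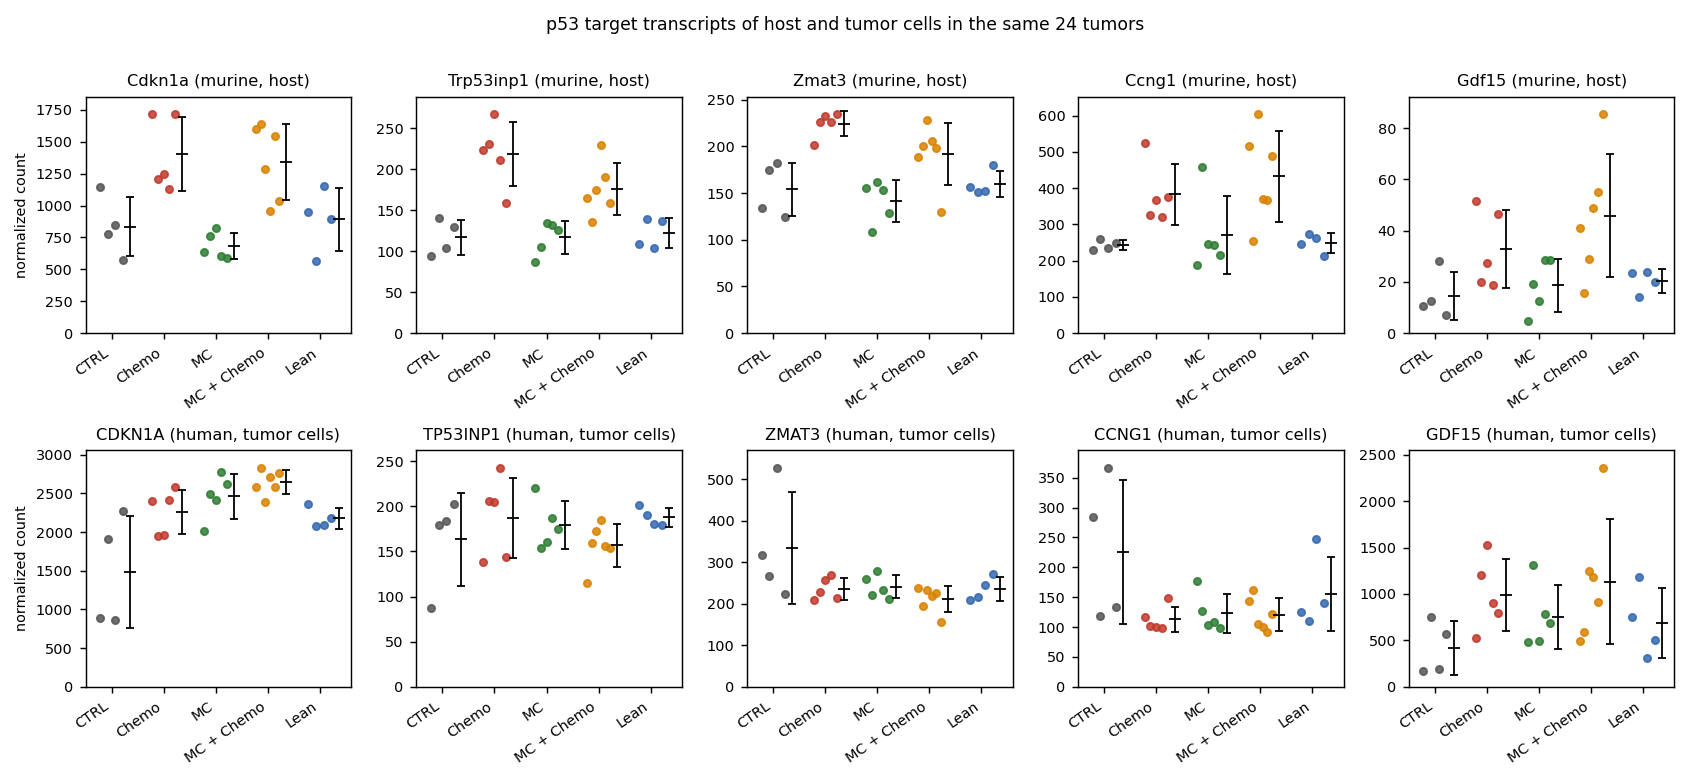
Normalized counts per tumor (dots) with the group mean ± SD (dash and bar) of 5 genes in the host (top) and in tumor cells (bottom), for CTRL, Chemo, MC, MC + Chemo and Lean. Host Cdkn1a averaged 836 ± 234 in CTRL and 1404 ± 288 in Chemo, and 683 ± 104 in MC and 1344 ± 297 in MC + Chemo, while human CDKN1A ran from 859.8 to 2276 within CTRL alone.

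At an unadjusted p below 0.05, 7 of the 21 host members differed with chemotherapy across both diets, all of them higher (Cdkn1a, Trp53inp1, Eda2r, Zmat3, Ccng1, Gdf15 and Plk3), beside 2.39% of all host genes that were higher at that level. The median log2 fold change of the 21 members was 0.33, and that of all host genes tested was −0.03. DESeq2 called 4 members (Cdkn1a, Trp53inp1, Eda2r and Zmat3) with adjusted p values of 2.1e-05 to 0.0180, beside 0.282% of all host genes. The edgeR calls of Cdkn1a and Trp53inp1 lay close to the threshold. Leaving out each of the 20 high-fat tumors in turn, Cdkn1a kept an adjusted p below 0.05 in 3 cases (without CTRL 17, Chemo 34 or MC + Chemo 52) and Trp53inp1 in 2 (without Chemo 34 or MC + Chemo 52). Over these 20 fits the log2 fold change stayed at 0.79 to 0.95 for Cdkn1a and 0.69 to 0.78 for Trp53inp1, while the adjusted p ran from 0.0170 to 0.134 and from 0.0458 to 0.151. With the muscle- or fat-rich tumors left out, both had an adjusted p of 0.549 at log2 fold changes of 0.87 and 0.78, and with MC + Chemo 5 counted as MC, Cdkn1a had 0.68 (adjusted p = 0.396) and Trp53inp1 0.69 (adjusted p = 0.214). Without MC + Chemo 5 both had an adjusted p of 0.0924, at 0.82 and 0.74. Without CTRL 17 and CTRL 44, Cdkn1a had 1.00 (adjusted p = 0.0887) and Trp53inp1 0.63 (adjusted p = 0.630).

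Marker sums of some host cell types also differed between groups. The 7 of 8 neutrophil markers present summed to 373 to 2550 normalized counts in CTRL, 1045 to 7493 in Chemo, 1319 to 2514 in MC and 631 to 6947 in MC + Chemo. The 5 of 7 erythroid markers present summed to 694 to 2390 in CTRL, 3740 to 14743 in Chemo, 3159 to 11125 in MC and 6044 to 21831 in MC + Chemo. Lean tumors had 1878 to 2760 for the neutrophil and 4576 to 5165 for the erythroid markers. Erythroid sums thus lay above every CTRL tumor in MC and Lean too, where no chemotherapy was given. No marker of these lists was at 0 in any tumor. Macrophage sums overlapped widely, at 16056 to 23097 in CTRL and 16503 to 24744 in Chemo, as did fibroblast sums, at 64220 to 158277 and 57094 to 113498. Their part in the host results was not tested, and in these bulk samples a change in the number of cells of a type and in the RNA per cell cannot be told apart.

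The 2 differences that make up this average share no tumor. In Chemo against CTRL, 0 of 21 host members and 0.0% of all host genes were called, the smallest member adjusted p being 0.330 by edgeR's quasi-likelihood test. There, 18 members were higher, 10 of them at an unadjusted p below 0.05 beside 2.13% of all host genes, and the median log2 fold change was 0.53. Groups did not overlap for 6 members, all higher in Chemo (Aen, Ccng1, Eda2r, Phlda3, Trp53inp1 and Zmat3), which held for 0.66% of all host genes. In MC + Chemo against MC, again 0 members and 0.0% of all host genes were called, with a smallest member adjusted p of 0.475. Here 16 members were higher, 7 of them at an unadjusted p below 0.05 beside 3.71% of all host genes, and the median was 0.14. Cdkn1a, Eda2r and Trp53inp1 did not overlap between MC + Chemo and MC, beside 0.386% of all host genes. With MC + Chemo 5 counted as MC, each of them would overlap.

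Cdkn1a had log2 fold changes of 0.75 ± 0.22 (SE) in Chemo against CTRL and 0.96 ± 0.20 (SE) in MC + Chemo against MC, and Trp53inp1 0.90 ± 0.19 (SE) and 0.57 ± 0.17 (SE). Eda2r had 1.59 ± 0.36 (SE) and 0.98 ± 0.32 (SE), Ccng1 0.65 ± 0.25 (SE) and 0.67 ± 0.23 (SE), and Zmat3 0.55 ± 0.17 (SE) and 0.42 ± 0.15 (SE). These 5 genes were higher with chemotherapy on either diet. In all, 15 of the 21 host members, 71.4%, were higher in both, while 19.8% of all host genes were. Across the 21 members the log2 fold changes of both differences had a Pearson r of 0.63 and a Spearman rho of 0.51, and across all 15011 host genes r was 0.01. Members differed in direction at Phlda3 (0.76 and −0.30), Sesn1 (−0.04 and 0.69), Xpc (0.53 and −0.10) and Rrm2b (0.13 and −0.39). These correlations are across genes, which are not independent replicates, and are given as a description.

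**Figure D3:**
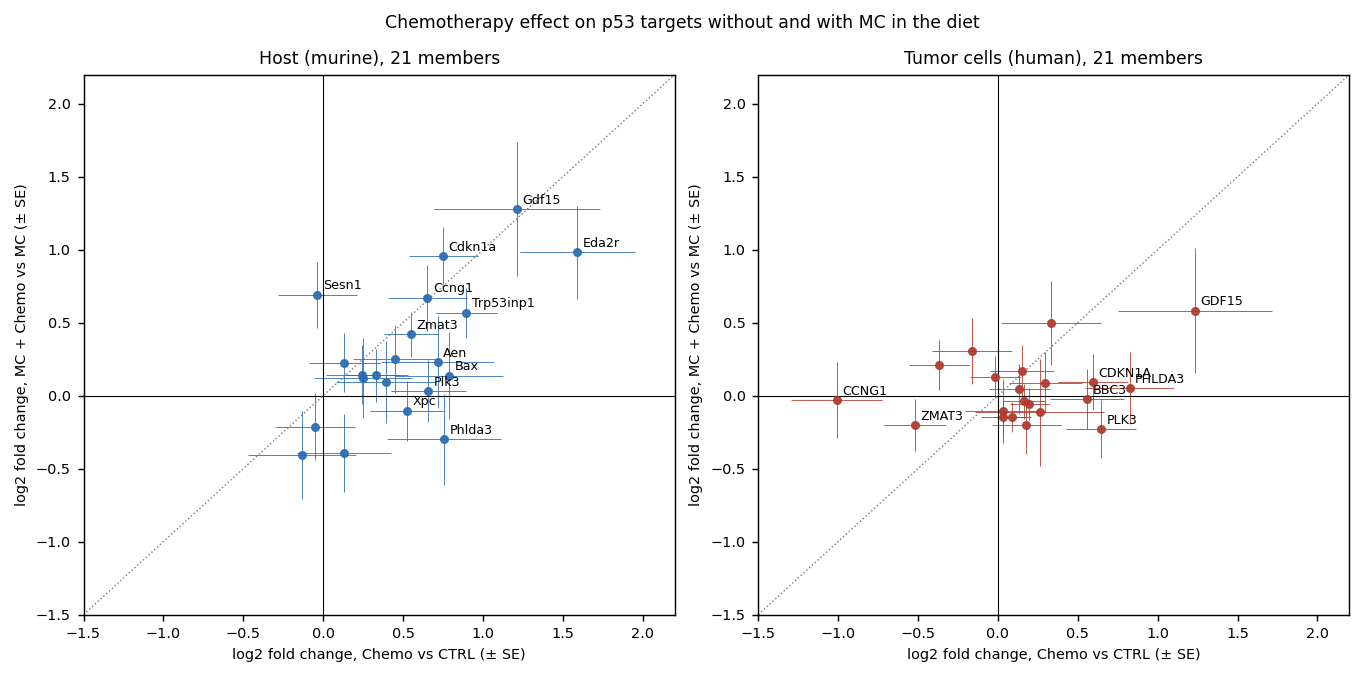
Log2 fold change (± SE) of each member in Chemo against CTRL (x axis) and in MC + Chemo against MC (y axis), for the host (left) and tumor cells (right), with a dotted line of equal change. In the host, 15 of 21 members lie in the upper right part, and in tumor cells 7 of 21 do.

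The modifying effect of MC was tested directly as the difference between both chemotherapy effects. No host member passed (0 of 21, and 0.0% of all host genes), the smallest adjusted p being 0.695 by edgeR's quasi-likelihood test. Phlda3, at −1.06 ± 0.47 (SE), and Sesn1, at 0.73 ± 0.33 (SE), had an unadjusted p below 0.05, beside 6.87% of all host genes. For Cdkn1a the difference was 0.20 ± 0.29 (SE) and for Trp53inp1 −0.33 ± 0.25 (SE) on the log2 scale, each less than 1.5 times its SE from 0. In MC + Chemo against Chemo, 7 of 21 members were higher, 0 were called (0.0% of all host genes), 0 had an unadjusted p below 0.05 beside 11.0% of all host genes, and the median log2 fold change was −0.12.

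In the tumor cells, no p53 target was called with chemotherapy across both diets. Of the 21 human members, 14 were higher and 7 lower, with a median log2 fold change of 0.07, that of all human genes being −0.02. By edgeR's quasi-likelihood test 0 of 16434 human genes, 0.0%, were called, although 17.6% had an unadjusted p below 0.05. At that level 5 members differed, 3 of them higher (GDF15, PHLDA3 and CDKN1A) and 2 lower (ZMAT3 and CCNG1). DESeq2 called 0 members as well, while it called 2.66% of all human genes.

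CDKN1A (ENSG00000124762) had 891, 1912, 859.8 and 2276 normalized counts in CTRL and 2399, 1954, 1967, 2412 and 2588 in Chemo. MC tumors had 2011, 2492, 2415, 2783 and 2626, MC + Chemo tumors 2393 to 2833 with a median of 2652, and Lean tumors 2368, 2081, 2090.5 and 2176. The lowest values by far were those of CTRL 17 and CTRL 44, and the other tumors of all 5 groups lay within 1912 to 2833. The log2 fold change with chemotherapy across both diets was 0.34 ± 0.15 (SE), adjusted p = 0.231 by edgeR's quasi-likelihood test, and it was 0.10 without CTRL 17 and CTRL 44. MDM2 (ENSG00000135679), by which p53 limits itself, had 443, 593, 504 and 599.8 in CTRL and 535, 602, 499.8, 579 and 655 in Chemo. MC tumors had 643, 528, 550.5, 643 and 586, MC + Chemo tumors 491 to 575 with a median of 548, and Lean tumors 553, 634, 505 and 648. All groups overlapped, with a log2 fold change of −0.03 ± 0.08 (SE) and an adjusted p of 0.877 by the same test.

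The 4 human members with the smallest p were GDF15, ZMAT3, CCNG1 and PHLDA3. GDF15 (ENSG00000130513) had 168, 755, 186 and 563 normalized counts in CTRL and 523, 1210.3, 1532, 899.9 and 792 in Chemo. MC tumors had 483, 1317, 492.8, 781 and 687, MC + Chemo tumors 491 to 2362 with a median of 1050.0, and Lean tumors 753, 1188, 314 and 499. The groups overlapped, and CTRL 17 and CTRL 44 were again the lowest. The log2 fold change was 0.91 ± 0.32 (SE), adjusted p = 0.157 by edgeR's quasi-likelihood test, and 0.58 without these 2 tumors.

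ZMAT3 (ENSG00000172667) had 318, 266, 528 and 224 normalized counts in CTRL and 209, 227, 257, 269.7 and 214 in Chemo. MC tumors had 259.8, 220.1, 279, 234 and 212, MC + Chemo tumors 156 to 238 with a median of 223, and Lean tumors 209, 218, 244 and 273. CTRL 44 and CTRL 17 had the highest values, and the other groups overlapped. With chemotherapy the log2 fold change was −0.36 ± 0.13 (SE), adjusted p = 0.168 by edgeR's quasi-likelihood test, and −0.14 without CTRL 17 and CTRL 44. CCNG1 (ENSG00000113328), with 284, 118, 367 and 134 in CTRL and 116, 102, 101, 98.5 and 148 in Chemo, was likewise highest in these 2 tumors. MC tumors had 177, 127, 103, 108 and 98.3, MC + Chemo tumors 91.6 to 162 with a median of 114, and Lean tumors 126, 109, 247 and 140.2. Its log2 fold change of −0.52 ± 0.19 (SE), adjusted p = 0.173 by the same test, became −0.10 without these 2 tumors.

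PHLDA3 (ENSG00000174307) had 141, 372, 134 and 246 normalized counts in CTRL and 444, 421, 312, 402 and 410.1 in Chemo. MC tumors had 196, 446, 307, 432 and 419, MC + Chemo tumors 263 to 508 with a median of 370.0, and Lean tumors 346, 337, 152 and 323. Its log2 fold change of 0.44 ± 0.18 (SE), adjusted p = 0.228 by edgeR's quasi-likelihood test, became 0.21 without CTRL 17 and CTRL 44, the lowest of CTRL. Among the other human members, FAS had the largest log2 fold change, 0.42, followed by BBC3 at 0.27 and PLK3 at 0.21, and the rest lay between −0.08 and 0.19.

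**Figure D4:**
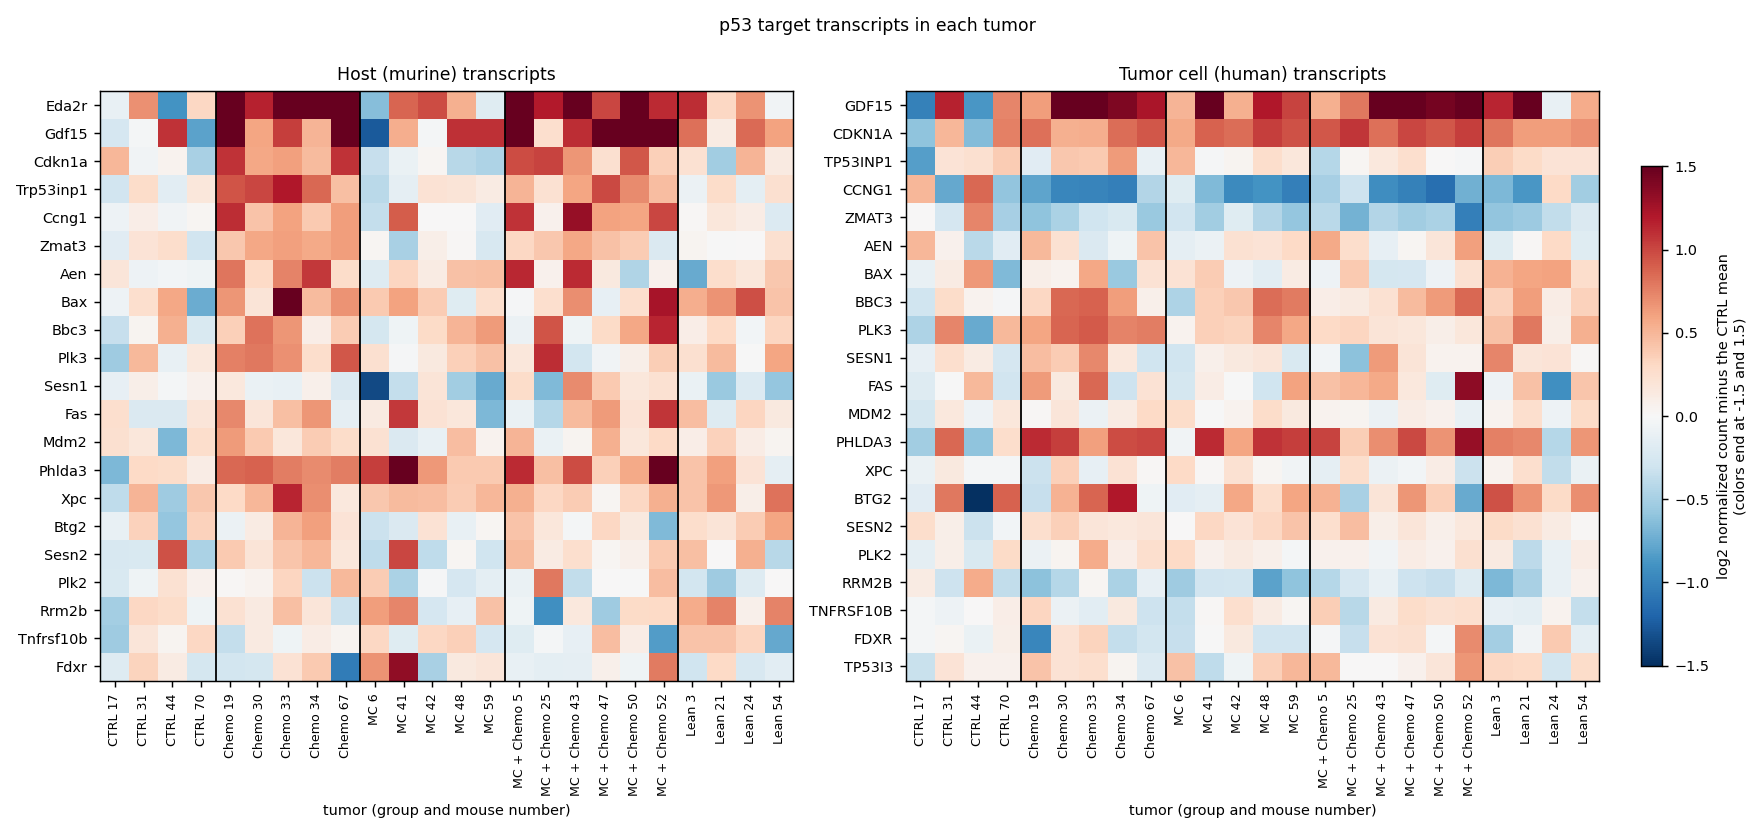
Log2 normalized count minus the CTRL mean of each member (rows) in each of the 24 tumors (columns, by group), for host and tumor cell transcripts, with colors ending at −1.5 and 1.5. Averaged over the 21 host members, the 5 Chemo tumors lie at 0.41 to 0.66 and the 6 MC + Chemo tumors at 0.24 to 0.59, and the CTRL tumors at −0.18 to 0.17. Averaged over the human members, the same groups lie at 0.11 to 0.38, 0.07 to 0.35 and −0.18 to 0.20. The MC tumors lie at −0.05 to 0.38 in the host and 0.0036 to 0.21 in tumor cells, and the Lean tumors at 0.14 to 0.22 and 0.03 to 0.25.

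The same 2 differences were set side by side in the tumor cells. In Chemo against CTRL, 16 of 21 human members were higher, 0 were called by edgeR (0.0% of all human genes) and 1, CCNG1, by DESeq2 (3.49%), the median log2 fold change was 0.16, and 7 members had an unadjusted p below 0.05 beside 18.2% of all human genes. In MC + Chemo against MC, 10 were higher, 0 were called (0.0%), the median was −0.02, and 0 members had an unadjusted p below 0.05 beside 7.95% of all human genes. Of the 21 human members, 7 were higher in both, and 42.9% had the same direction in both, beside 55.5% of all human genes. Across the human members r was 0.31 and rho 0.13, again as a description across genes. CDKN1A had 0.60 ± 0.22 (SE) in Chemo against CTRL and 0.09 ± 0.20 (SE) in MC + Chemo against MC, and CCNG1 −1.01 ± 0.28 (SE) and −0.03 ± 0.26 (SE). Without CTRL 17 and CTRL 44 the values in Chemo against CTRL were 0.10 for CDKN1A and −0.17 for CCNG1, 12 of 21 human members were higher, and the median was 0.02. In the test of the difference between both effects, 4 human members had an unadjusted p below 0.05 (PLK3, CCNG1, RRM2B and PHLDA3) beside 9.74% of all human genes, and 0 were called (0.0%), with a smallest adjusted p of 0.511 by edgeR's quasi-likelihood test.

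With edgeR, MC + Chemo against CTRL was the only comparison in which a human member was called. CDKN1A was 1.76-fold higher in MC + Chemo, with a log2 fold change of 0.82 ± 0.21 (SE) and an adjusted p of 0.0496 by edgeR's quasi-likelihood test with Benjamini-Hochberg adjustment. In that comparison 343 human genes were called, 2.09%, and 0.59% were called as higher. At an unadjusted p below 0.05, 5 human members differed (CDKN1A, GDF15 and PHLDA3 higher, ZMAT3 and CCNG1 lower), beside 22.7% of all human genes. All 6 MC + Chemo tumors lay above all 4 CTRL tumors for CDKN1A, which held for 2.65% of all human genes. The call depended on single tumors. In 20 fits that each left out 1 high-fat tumor it was kept in 3 (without CTRL 31, CTRL 70 or MC 6), the adjusted p running from 0.0124 to 0.163, and without both CTRL 17 and CTRL 44 the log2 fold change was 0.32 with an adjusted p of 0.398. It was 0.82 both without MC + Chemo 5 (adjusted p = 0.0696) and with that tumor as MC (adjusted p = 0.0548). In the host, MC + Chemo against CTRL gave 19 of 21 members higher, 0 called (0.0% of all host genes), 6 at an unadjusted p below 0.05, all higher (5.1% of all host genes), a median log2 fold change of 0.32 and a smallest adjusted p of 0.171 by the same test, with Eda2r and Phlda3 not overlapping (0.926% of all host genes were higher without overlap).

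Tumor cells and host were then compared within each tumor, as the difference of human and murine log2 CPM (counts scaled to library size) of the same gene, over 10608 genes matched by symbol. With chemotherapy across both diets, 1 of the 20 member pairs was called, ZMAT3, beside 7 of all 10608 pairs, 0.066%. Its human transcript fell relative to its murine counterpart by 0.81 ± 0.11 (SE) on the log2 scale, adjusted p = 0.00638 by limma with Benjamini-Hochberg adjustment, the smallest p of all pairs. The other called pairs, PSRC1, RIPOR2, PSMC3IP, CRTAM, DEPDC5 and OXTR, were not members, which does not say whether p53 acts on them. In 15 of the 20 pairs the human member had the lower change, the median difference being −0.18, while 52.3% of all pairs were lower, with a median of −0.01. At an unadjusted p below 0.05, 5 member pairs differed (ZMAT3, TP53INP1, CCNG1, BAX and MDM2), all lower in tumor cells, beside 10.0% of all pairs in either direction.

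The log2 ratio of human ZMAT3 to murine Zmat3 normalized counts was 1.236, 0.61, 1.53 and 0.85 in CTRL and 0.74, 1.02, 0.78, 0.61 and 0.72 in MC. It was 0.05, 0.00, 0.14, 0.25 and −0.13 in Chemo, and −0.05 to 0.33 with a median of 0.14 in MC + Chemo. Lean tumors had 0.41, 0.53, 0.68 and 0.60. All 11 tumors with chemotherapy lay below all 9 high-fat tumors without it, which held for 2 of all pairs (ZMAT3 and PSRC1), 0.0189%, and they also lay below the 4 Lean tumors. Each genome was scaled on its own, so the value of a single ratio carries no meaning beyond its difference between groups. The call was kept without each of the 20 high-fat tumors in turn (adjusted p of 0.00125 to 0.0263 by limma) and without CTRL 17 and CTRL 44 (−0.64, adjusted p = 0.0346), but not without the muscle- or fat-rich tumors (−0.83, adjusted p = 0.166) or MC 41 and MC 42, whose RNA had an extra cleanup (−0.77, adjusted p = 0.0646).

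**Figure D5:**
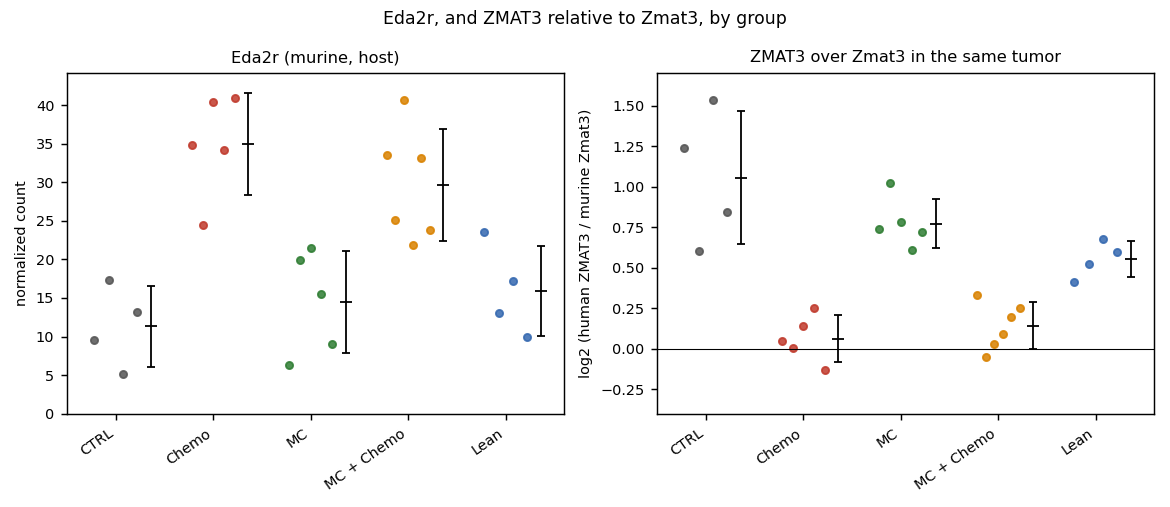
Left, normalized counts of host Eda2r in each tumor (dots) with the group mean ± SD. Right, log2 ratio of human ZMAT3 to murine Zmat3 in the same tumor. All 11 tumors with chemotherapy lie above the 9 high-fat tumors without it for Eda2r, where Lean 3 overlaps at 23.5, and below all 13 other tumors for the ratio. Groups are by title, and with MC + Chemo 5 counted as MC the groups would overlap for Eda2r.

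The ZMAT3 difference had parts from both species, host Zmat3 at 0.49 and human ZMAT3 at −0.36 on the log2 scale. Neither part alone was called by edgeR, and the human part was −0.14 without CTRL 17 and CTRL 44. In Chemo against CTRL the pair differed by −1.001 ± 0.16 (SE), adjusted p = 0.0658 by limma, with 0 pairs called (0.0%). The pair was called there without MC + Chemo 5 (adjusted p = 0.0404) or with that tumor as MC (adjusted p = 0.0470), since all high-fat tumors share 1 fit. The pair differed by −0.62 ± 0.15 (SE) in MC + Chemo against MC, adjusted p = 0.653, with 0 called (0.0%). Besides ZMAT3, BAX and CCNG1 did not overlap in Chemo against CTRL, where 0.811% of all pairs were lower without overlap, and CDKN1A and TP53INP1 did not overlap in MC + Chemo against MC, where 0.302% were. For the latter, MC + Chemo 5 was taken by its title. ZMAT3 was also the 1 member pair called in MC + Chemo against CTRL, at −0.92 ± 0.16 (SE), adjusted p = 0.0292 by limma, beside 0.113% of all pairs, a call lost without CTRL 17, CTRL 44, MC + Chemo 43, 47, 50 or 52 (adjusted p of 0.0508 to 0.138). Across both diets TP53INP1 differed by −0.72 ± 0.16 (SE), adjusted p = 0.130, and CCNG1 by −1.10 ± 0.27 (SE), adjusted p = 0.183, by the same test. CDKN1A differed by −0.44 ± 0.23 (SE), adjusted p = 0.560, so for p21 a lower induction in tumor cells than in the host was not shown. MDM2 differed by −0.28 ± 0.13 (SE), adjusted p = 0.474, and GDF15 by −0.21 ± 0.44 (SE), adjusted p = 0.906.

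MC without chemotherapy gave no call among the members. Against CTRL, 16 of 21 host members were higher with a median log2 fold change of 0.20, and 0 members and 0.0% of all host genes were called. Phlda3 had the largest change, 1.17 ± 0.36 (SE), adjusted p = 0.251 by edgeR's quasi-likelihood test, and did not overlap between the groups, beside 1.15% of all host genes. It was the 1 host member with an unadjusted p below 0.05, beside 11.8% of all host genes. Its normalized counts were 80.7, 159, 156 and 139.5 in CTRL and 267, 695, 204, 169.6 and 169.6 in MC, and the highest was the muscle- and fat-rich MC 41. Cdkn1a had −0.28 ± 0.21 (SE) and Trp53inp1 0.01 ± 0.19 (SE). Of the human members, 15 were higher, 0 were called (0.0% of all human genes), and 5 had an unadjusted p below 0.05 beside 10.7% of all human genes (CDKN1A 0.72, PHLDA3 0.68, ZMAT3 −0.48, RRM2B −0.55 and CCNG1 −0.89). Without CTRL 17 and CTRL 44 these were 0.23, 0.22, −0.03, −0.15 and −0.05, each with an unadjusted p above 0.05. In MC + Chemo against Chemo, the polo-like kinase PLK3 was lower without overlap in tumor cells, with a log2 fold change of −0.58 ± 0.20 (SE) and an adjusted p of 0.332 by the same test, beside 1.44% of all human genes lower without overlap and 0.0% called. It was the 1 human member with an unadjusted p below 0.05 there, beside 10.4% of all human genes.

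The lean diet gave no call either. In Lean against CTRL 18 of 21 host members were higher with a median log2 fold change of 0.15, 0 were called (0.0% of all host genes), and 0 had an unadjusted p below 0.05 beside 3.11% of all host genes. Cdkn1a had 0.10 ± 0.23 (SE), Trp53inp1 0.07 ± 0.20 (SE) and Eda2r 0.48 ± 0.38 (SE). Of the human members 13 were higher, 0 were called (0.0% of all human genes), and ZMAT3, at −0.51 ± 0.20 (SE), and CDKN1A, at 0.55 ± 0.21 (SE), had an unadjusted p below 0.05 beside 7.08% of all human genes. The highest ZMAT3 and the lowest CDKN1A counts of CTRL were those of CTRL 17 and CTRL 44, and values without them are not given here.

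DESeq2, run on the same counts, called more members in the separate comparisons than edgeR. In the host it called Trp53inp1 and Eda2r in Chemo against CTRL (0.132% of all host genes), Cdkn1a in MC + Chemo against MC (0.0785%) and Eda2r and Gdf15 in MC + Chemo against CTRL (1.14%). It called 0 host members in MC against CTRL (1.76%), MC + Chemo against Chemo (0.294%), Lean against CTRL (0.00601%) and for the modifying effect of MC (0.0%). In tumor cells it called CCNG1 in Chemo against CTRL (3.49% of all human genes) and CCNG1, CDKN1A, GDF15 and ZMAT3 in MC + Chemo against CTRL (7.16%). It called 0 human members in MC + Chemo against MC (0.0424%), MC against CTRL (0.0919%), MC + Chemo against Chemo (0.0795%), Lean against CTRL (0.0106%) and for the modifying effect of MC (0.0106%).

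Other genes of the pathway were followed from lists of further p53 targets, regulators of p53 and cell cycle genes that p53 represses through p21. Of 23 further targets tested in the host, 12 were higher with chemotherapy across both diets, 0 passed the test, and the median log2 fold change was 0.00. Rps27l, a ribosomal protein-like p53 target, was the only one with an unadjusted p below 0.05, at 0.36 ± 0.15 (SE), beside 5.7% of all host genes. In tumor cells 14 of 26 further targets were higher, 0 passed, and the median was 0.04. An unadjusted p below 0.05 was seen for 5 of the 26, a share near the 17.6% of all human genes, with log2 fold changes of 0.56 for PERP, 0.41 for TIGAR, −0.63 for TNFRSF10D, −0.38 for POLH and −0.36 for STEAP3.

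Of 16 regulators of p53 tested in each species, 6 were higher in the host and 5 in tumor cells with chemotherapy across both diets, and 0 passed in either. The damage kinase Atm had a log2 fold change of −0.32 in the host, and ATM −0.56 in tumor cells. Of the 16 regulators, 1 in the host and 4 in tumor cells had an unadjusted p below 0.05, all lower. Of all genes, 5.7% in the host and 17.6% in tumor cells had. The related kinase ATR fell by 0.58 ± 0.14 (SE) on the log2 scale in tumor cells of MC + Chemo against CTRL, adjusted p = 0.0393 by edgeR's quasi-likelihood test, the 1 regulator called there beside 2.09% of all human genes. Over 32 alternatives, run after seeing the data, it had log2 fold changes of −0.65 to −0.48 and passed in 17. It did not pass without CTRL 17 and CTRL 44 (−0.58, adjusted p = 0.234) or without the muscle- or fat-rich tumors (−0.48, adjusted p = 0.356). Of the cell cycle genes repressed through p53 and p21, 2 of 14 were higher in the host and 0 of 15 in tumor cells with chemotherapy across both diets, with median log2 fold changes of −0.20 and −0.14, and 0 passed in either. The proliferation marker Mki67 had −0.45 ± 0.21 (SE) in the host and MKI67 −0.35 ± 0.14 (SE) in tumor cells. An unadjusted p below 0.05 was seen for 3 of 14 host genes of the list, beside 5.7% of all host genes. In tumor cells it was seen for 3 of 15, beside 17.6% of all human genes, and all of these list genes were lower. The host list had 0 of 14 genes higher in each comparison of a high-fat group with CTRL, with medians of −0.40 in Chemo, −0.52 in MC, where no chemotherapy was given, and −0.42 in MC + Chemo. Of all host genes, 49.7%, 50.05% and 51.1% were higher there. These 3 comparisons share the CTRL tumors. The list had 7 of 14 higher in MC + Chemo against MC, with a median of 0.01. No gene of the list passed the test in these 4 comparisons, and the list itself was not tested. In tumor cells 0 of 15 genes were higher in Chemo and 0 of 15 in Lean, each against CTRL, with medians of −0.28 and −0.29. Of all human genes, 47.7% and 47.5% were higher in these. Against CTRL, 1 of 15 was higher in MC (median −0.17) and 1 of 15 in MC + Chemo (−0.18). All human comparisons with CTRL include CTRL 17 and CTRL 44, and values of this list without them are not given here. In MC + Chemo against MC, 5 of 15 were higher, with a median of −0.03.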

How the data were processed

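Tumors of 24 mice were sequenced by the study from 3′ end libraries (QuantSeq, 50 bp reads) and aligned and counted per genome, the murine reads against GRCm38. The authors deposited raw counts, and counts divided by DESeq2 1.22.2 size factors, a normalized signal per gene called normalized count here. The human build is not given in the sources used here. Tests used the raw counts as deposited with edgeR 4.0.16 (quasi-likelihood, TMM, default filter on low counts) in R 4.3.3, in 1 fit of the 20 high-fat tumors per genome, and of all 24 tumors for Lean against CTRL. p-values were adjusted by Benjamini-Hochberg over all genes tested, and called means an adjusted p below 0.05. Human minus murine log2 CPM of genes matched by symbol (11279 pairs, prior count 2) was tested with limma 3.58.1. DESeq2 1.42.0, other scaling and filters, and tumors left out were alternatives. The fits were tested on simulated data. Members and lists were chosen with earlier results of these data known. Values by tumor are given for Cdkn1a and Mdm2 with their human counterparts, Trp53, called members or the 4 with the smallest p, and called pairs. For MC + Chemo the range and median stand in place of the single values. A result that this rule also covers is not reported here. With 3′ end reads, levels are not compared between genes.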

Additional observations from a re-analysis of the deposited data

Results flagged for a closer look

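A gap test (Dixon) over 215 groups of 4 to 6 values, each a member or Trp53 in 1 group, marked 17 values that lay far from the rest of their group, 7.91% of the groups tested, where chance marks about 1 in 20. In the host, 3 of the values came from MC 41, rich in muscle and fat markers, with normalized counts of 457 for Ccng1 (other MC tumors 189 to 244), 695 for Phlda3 (169.6 to 267) and 71.6 for Sesn2 (26.8 to 36.2). CTRL 44 had 173 for Mdm2 (309.9 to 331) and 69.2 for Sesn2 (25.1 to 29.9), and CTRL 17 had 10.6 for Aen (8.69 to 8.97). Chemo 19 had 524 for Ccng1 (319 to 374) and 202 for Zmat3 (226 to 235), and Chemo 33 had 105 for Bax (37.2 to 52.3) and 73.6 for Trp53 (21.1 to 36.1). MC + Chemo 25 had 467 for Plk3 (179 to 279.99), MC + Chemo 52 had 63.4 for Fdxr (32.8 to 38.6), and Lean 54 had 25.004 for Tnfrsf10b (54.6 to 58.99).

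In tumor cells, Lean 24 had 152 for PHLDA3 (323 to 346) and 246 for TP53I3 (360.2 to 370.3), MC + Chemo 52 had 76.2 for FAS (25.8 to 44.01), and MC + Chemo 25 had 422 for TNFRSF10B (618 to 731). The fat-rich MC + Chemo 52 was thus high for a member in either species.

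The change of ZMAT3 with treatment differed between tumor cells and host, by −0.81 on the log2 scale with chemotherapy across both diets (adjusted p = 0.00638 by limma) and by −0.92 in MC + Chemo against CTRL (adjusted p = 0.0292 by limma). CTRL tumors enter both values.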

How the results depend on the processing

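The direction of the host response held more firmly than its calls. Cdkn1a was higher with chemotherapy across both diets under all 31 alternatives (log2 fold change 0.68 to 1.00) and passed the test under 8. Host members called there numbered 4 with DESeq2, 1 without the count filter, and 0 with robust dispersion, with MC + Chemo 5 as MC or left out, without the libraries with an extra cleanup, without the muscle- or fat-rich tumors and without CTRL 17 and CTRL 44, and 0 to 2 with 1 tumor left out. Leaving out the muscle- or fat-rich tumors, and leaving out CTRL 17 and CTRL 44, were chosen after seeing the data. DESeq2 called 2 host members in Chemo against CTRL, 1 in MC + Chemo against MC and 2 in MC + Chemo against CTRL. The host median in MC against CTRL was −0.0030 without CTRL 17 and CTRL 44. In tumor cells DESeq2 called 1 member in Chemo against CTRL and 4 in MC + Chemo against CTRL. For the latter, the number was 2 with all tumors in 1 fit and 0 without the count filter, with a base mean above 30, with only the compared groups, with MC + Chemo 5 as MC or left out, and without the extra cleanup libraries, the muscle- or fat-rich tumors, or CTRL 17 and CTRL 44. With 1 tumor left out, tumor cell calls ranged over 0 to 1 across both diets, 0 to 4 in Chemo against CTRL and 0 to 5 in MC + Chemo against CTRL. The highest of each came without CTRL 31, and without CTRL 70 the number was 3 in both comparisons with CTRL (CCNG1, CDKN1A and ZMAT3).

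Called pairs across both diets fell to 0 without the extra cleanup libraries or the muscle- or fat-rich tumors. In MC + Chemo against CTRL they fell to 0 without the extra cleanup libraries, the muscle- or fat-rich tumors, or CTRL 17 and CTRL 44, and in Chemo against CTRL the number was 1 with MC + Chemo 5 as MC or left out. With 1 tumor left out, pairs called were 0 to 2 in either comparison with CTRL, the 2 being CCNG1 and ZMAT3 without CTRL 31, and in MC + Chemo against CTRL also without CTRL 70.

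Log2 fold changes near 0 changed sign. Host Mdm2 in MC + Chemo against MC was −0.012 without the extra cleanup libraries. In tumor cells across both diets, without CTRL 17 and CTRL 44, BAX was 0.12, RRM2B 0.12, BTG2 −0.22, PLK2 −0.026 and PLK3 −0.034. TP53INP1 was 0.000441 with RLE scaling, 0.070 with MC + Chemo 5 as MC, 0.024 without it and 0.0047 without the muscle- or fat-rich tumors. TNFRSF10B was −0.00135 with MC + Chemo 5 as MC. FDXR was −0.035 and TP53I3 −0.054 without the muscle- or fat-rich tumors, and TP53I3 −0.025 without the extra cleanup libraries. MDM2 in Chemo against CTRL was −0.067 without CTRL 17 and CTRL 44, and PHLDA3 in MC + Chemo against MC −0.014 with MC + Chemo 5 as MC. Among pairs across both diets, TNFRSF10B was −0.0046 and FAS −0.14 without the muscle- or fat-rich tumors, FAS −0.028 without the extra cleanup libraries and GDF15 0.041 with MC + Chemo 5 as MC. With 1 tumor left out, human log2 fold changes across both diets ranged over −0.073 to 0.00081 for MDM2, −0.13 to 0.10 for BAX, −0.12 to 0.049 for TP53INP1, −0.077 to 0.22 for BTG2, −0.14 to 0.038 for RRM2B and −0.0019 to 0.14 for FDXR. In MC + Chemo against MC they ranged over −0.14 to 0.13 for CCNG1 and −0.11 to 0.13 for PHLDA3. Pair differences ranged over −0.21 to 0.023 for BTG2, −0.014 to 0.18 for RRM2B, −0.16 to 0.0064 for PLK3 and −0.52 to 0.035 for GDF15. Where a value moved, the cause was not tested.

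No paired analysis was possible because every mouse has its own number and no 2 groups share one. Low host counts limit Eda2r, Gdf15 and Aen, with 3 to 97 raw counts per tumor for Gdf15 and 4 to 48 for Eda2r.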
